A study of Homo sapiens with 6 samples.

Results

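SVA elements are hominid-specific composite retrotransposons, and their RNA was measured here in HEK293T, a human embryonic kidney cell line expressing the large T antigen of SV40. Every row of the 6 deposited count tables is a locus of a repeat, and its identifier joins the repeat name, the number of the copy and a running number. The members were all loci whose repeat name is SVA_A, SVA_B, SVA_C, SVA_D, SVA_E or SVA_F, which gave 984 loci of 433837. SVA_D had 458 of them, SVA_F 166, SVA_B 114, SVA_C 98, SVA_A 91 and SVA_E 57. The members were chosen by name, but the tables list no locus that lacks reads in all 6 libraries, so these numbers count copies with reads and not all annotated copies.

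In the 3 U7 ASO libraries the cells had been transfected with a chimeric, chemically modified antisense oligonucleotide (ASO) against U7 small nuclear RNA, and in the 3 control ASO libraries with an ASO directed at GFP. Both were given at 100 nM with Lipofectamine to unedited cells of 1 line, so the labelled knockdown is a transient depletion and not a mutation. Total RNA was depleted of ribosomal RNA before library construction. The series title asks whether U7 RNA, the RNA of the particle that processes histone transcript ends, holds down HERV1/LTR12 elements and lincRNAs.

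An SVA element has a hexamer repeat of the unit CCCTCT at its start, then an Alu-like part, a variable number of tandem repeats and a SINE-R part derived from a HERVK retrovirus, and it ends in a poly(A) tail. It encodes no protein and is copied by the machinery of L1 elements. Subfamilies are lettered by age, from A, the oldest, to F, the youngest. In human cells SVA elements are repressed by KRAB zinc finger proteins, among them ZNF91, together with the corepressor TRIM28. LTR12C is the long terminal repeat, and so the promoter, of HERV9 retroviruses, whose internal parts have names such as HERV9NC-int.

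The U7 ASO libraries held 2089822, 2348997 and 2819540 reads in repeat loci, and the control ASO libraries held 2025985, 1926892 and 1980793. The 16 loci named U7 held 10, 4 and 6 reads with the U7 ASO and 10, 6 and 12 reads with the control ASO, too few for a check of the labels. The tables carry no coordinates, strand or gene rows, and SVA copies are close in sequence, so a read may belong to a copy other than the one it was counted at, and SVA transcripts cannot be told apart from other transcripts that cross an SVA. At least 90.4% of the SVA loci with a read in a library had an even count, so values are given as reads and not as fragments. Whether the libraries of a group came from separate cultures is known only from the series' design text, which calls them biological replicates.

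SVA RNA as a whole averaged higher in the U7 ASO libraries without a clear gap between the groups, and 2 loci of SVA_D made up most of the difference in the means. Together the 6 subfamilies took 0.240%, 0.177% and 0.218% of the reads in the U7 ASO libraries and 0.154%, 0.169% and 0.156% in the control ASO libraries. Exact (Clopper-Pearson) 95% intervals of these shares, which cover counting error only, ran from 0.172% to 0.247% over the U7 ASO libraries and from 0.149% to 0.175% over the control ASO libraries. On edgeR's CPM scale, after TMM scaling, the sums were 2358, 1713 and 2185 with the U7 ASO and 1676, 1752 and 1486 with the control ASO. On this scale the groups overlapped, because U7 ASO replicate 2 lay below control ASO replicate 2. The means were 2085 ± 334 CPM with the U7 ASO and 1638 ± 137 CPM with the control ASO (SD, n = 3 each), a 1.27-fold ratio.

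The reads were thinly spread over many copies. In the U7 ASO libraries 345, 356 and 415 SVA loci had a read, against 248, 278 and 246 in the control ASO libraries. Per 100 SVA reads that was 7.39 ± 1.00 loci with the U7 ASO and 8.14 ± 0.33 with the control ASO, so the larger number of loci came with a larger number of reads. Over all 6 libraries 515 of the 984 loci held at most 6 reads, 42 held at least 100 and 52 had a read in every library. Reads were found only with the U7 ASO at 459 loci, only with the control ASO at 235 and with both at 290. The U7 ASO libraries held on average 1.22-fold as many reads in repeat loci. The matching split of all listed repeat loci is not given here. The numbers 459 and 235 therefore cannot show whether the excess is particular to SVA, and this was not tested. A library's top 10 loci held 34.4% to 39.7% of its SVA reads in the U7 ASO group and 33.3% to 37.1% in the control ASO group.

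When counts were summed by subfamily, SVA_D showed the largest difference, but none of the 6 subfamilies passed the test. The test was edgeR's quasi-likelihood test on all 2236 repeat names with enough reads, with Benjamini-Hochberg adjustment over all of them and a threshold of 0.05. It called 0 of the 6 raised and 0 lowered, where 1.52% of all names were raised and 1.03% were lowered. At an unadjusted p under 0.05 it gave 1 of the 6 subfamilies, SVA_D, and 326 of all 2236 names. DESeq2 and limma-voom also called 0 of the 6.

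SVA_D, the subfamily with the most listed loci and the most reads, had 1299, 955 and 1102 CPM in the U7 ASO libraries and 839, 786 and 638 CPM in the control ASO libraries. The groups did not overlap; U7 ASO libraries were all higher for 9.93% of all tested names and all lower for 10.2%. The log2 fold change was 0.57 (SE 0.18, 95% interval 0.19 to 0.95, edgeR adjusted p = 0.117), equal to a 1.48-fold difference.

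SVA_C had 157, 143 and 155 CPM with the U7 ASO and 95.8, 147 and 107 CPM with the control ASO. Control ASO replicate 2 lay among the U7 ASO libraries, and the log2 fold change of 0.39 (SE 0.24, 95% interval −0.11 to 0.88) did not pass (edgeR adjusted p = 0.497).

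The old subfamilies SVA_A and SVA_B lay near equality in the means. SVA_A averaged 274 ± 55.4 CPM with the U7 ASO and 265 ± 46.4 CPM with the control ASO (SD, n = 3 each). Its log2 fold change was 0.05, with a 95% interval from −0.41 to 0.51. SVA_B averaged 313 ± 73.9 CPM with the U7 ASO and 311 ± 28.8 CPM with the control ASO. Its interval, −0.44 to 0.46 around 0.01, leaves out a change of more than 1.37-fold upwards. Both signs turned when single libraries were left out, and without its leading locus SVA_A had a log2 fold change of 0.34 (edgeR adjusted p = 0.562).

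The young subfamilies SVA_E and SVA_F were measured less precisely. SVA_F, the youngest, had 190, 116 and 219 CPM with the U7 ASO and 154, 170 and 117 CPM with the control ASO, so U7 ASO replicate 2 was as low as the lowest control library. Its log2 fold change was 0.26 (95% interval −0.28 to 0.79, edgeR adjusted p = 0.736). SVA_E had 46.1, 60.8 and 51.9 CPM with the U7 ASO and 62.6, 36.0 and 33.3 CPM with the control ASO, and its interval ran from −0.43 to 0.97 around 0.27.

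**Figure D1:**
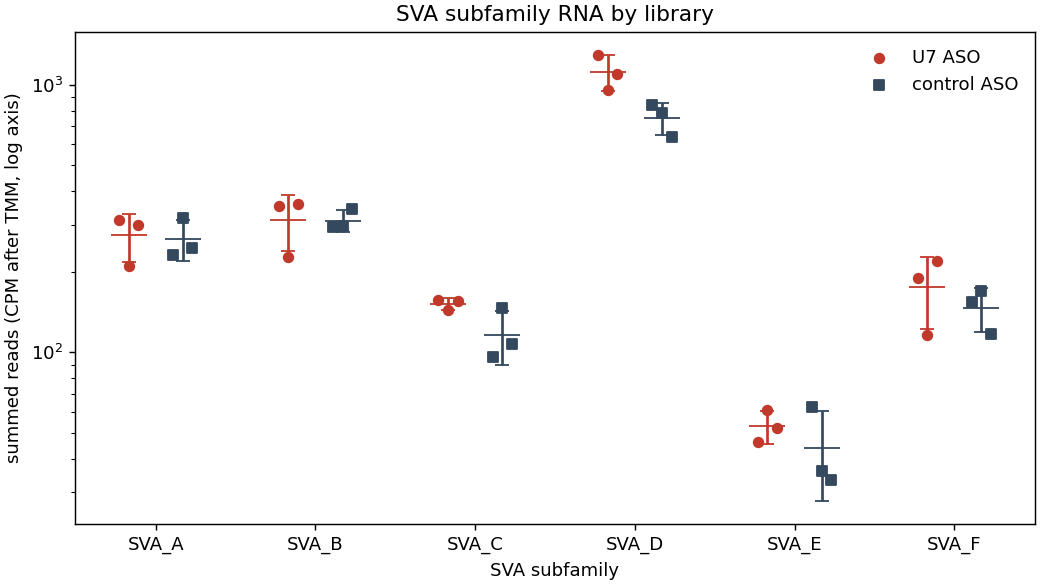
Summed reads of each SVA subfamily by library, in CPM after TMM scaling on a log axis. Points are libraries, horizontal lines are means and bars are SD (n = 3 each); SVA_D is the only subfamily whose 3 U7 ASO libraries (955 to 1299 CPM) all lie above its 3 control ASO libraries (638 to 839 CPM).

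Within each U7 ASO library SVA_D took a larger share of the SVA reads than in any control ASO library, although with 3 libraries against 3 no share could give an exact p below 0.1. SVA_D took 55.1%, 55.7% and 50.4% of the SVA reads with the U7 ASO and 50.1%, 44.9% and 42.9% with the control ASO, with 95% intervals from 49.2% to 57.2% and from 41.2% to 51.8%, which cover counting error only and are too narrow where reads were counted in pairs. SVA_B took 14.9 ± 1.55% with the U7 ASO and 19.2 ± 3.47% with the control ASO, and SVA_A 13.1 ± 0.71% and 16.2 ± 2.21% in the same order. For these 3 shares the groups did not overlap (exact two-sided permutation p = 0.1, the smallest this design allows, 0.2 after adjustment over 6 shares). The shares of a library add up to all its SVA reads, so a larger SVA_D share lowers the others. In CPM the means of SVA_A and SVA_B lay near equality, so the 3 differences in share are not separate results. Without the leading locus of each subfamily the difference in the SVA_D share was 2.20 percentage points, against 7.79 with them (exact permutation p = 0.6), and p for SVA_B was 0.3. The difference for SVA_A then turned from −3.11 to 0.48 percentage points (exact permutation p = 0.8). The shares of SVA_C, SVA_E and SVA_F overlapped between the groups, with exact permutation p-values of 0.7 to 0.9.

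At the level of single loci, 4 SVA copies rose and none was lowered. Enough reads for a test were found at 69 of the 984 loci, 7.01% of them, which held 65.7% of all SVA reads. Of these 69, 4 (5.80%) rose, 0 fell and the other 65 missed the threshold, where 4.49% of all 14380 tested loci were raised and 0.473% were lowered. That share is close to the background of all repeats. At an unadjusted p under 0.05 edgeR gave 7 of the 69 loci on the higher and 2 on the lower side. Over all 14380 tested loci it gave 1768, both sides together. DESeq2 called 1 SVA locus lowered and limma-voom 0. The count filter admits a locus without control reads only where the U7 ASO libraries are high, which was so for 4 of the 69. Such a locus can only come out on the higher side. The loci concerned were SVA_D_dup19_4861603, SVA_D_dup10_2979526 and SVA_C_dup16_2002161, all called, and SVA_A_dup50_3926386, not called. Of the raised copies only SVA_D_dup53_3079973 had control reads. The other 915 members were not tested.

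SVA_D_dup53_3079973 held the most reads of any SVA locus. It had 606, 354 and 448 reads in the U7 ASO libraries and 30, 40 and 46 reads in the control ASO libraries. It was thus present in every control library, and every U7 ASO library was several times higher. The log2 fold change was 3.48 (SE 0.35, 95% interval 2.74 to 4.23, edgeR adjusted p = 2.66e-05).

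SVA_D_dup19_4861603 had 389, 302 and 404 reads in the U7 ASO libraries and 0 reads in each of the control ASO libraries. Set against 3 reads over the control group in place of 0, it was 335-fold higher (edgeR adjusted p = 2.07e-06). This fold is not a strict lower bound. It takes reads as independent, although most counts were even, and leaves out error in the U7 ASO reads. A smaller copy, SVA_D_dup10_2979526, had 46, 24 and 54 reads with the U7 ASO and none with the control ASO. Computed in the same way it was 37.9-fold higher (edgeR adjusted p = 0.00144). Its call was lost without U7 ASO replicate 1 (adjusted p = 0.0624).

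The fourth copy belonged to SVA_C. SVA_C_dup16_2002161 had 14, 20 and 34 reads with the U7 ASO and 0 with the control ASO. Set against 3 control reads it was 20.8-fold higher (edgeR adjusted p = 0.0218). Its call was the least stable of the 4. It was lost whichever library was left out, and in limma-voom. It was also lost with the replicate number as a block and in the fit with no count filter (adjusted p = 0.0532 to 0.315 over all these fits).

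The other leading copies of SVA_D and SVA_B did not pass. SVA_D_dup67_5044086, the SVA locus with the most control reads, had 196, 223 and 239 reads with the U7 ASO and 310, 217 and 201 with the control ASO. Its groups overlapped, and the log2 fold change was −0.27 (95% interval −0.90 to 0.35, edgeR adjusted p = 0.878). The leading SVA_B locus, SVA_B_dup21_2199486, had 171, 177 and 228 reads with the U7 ASO and 83, 147 and 136 with the control ASO (log2 fold change 0.52, adjusted p = 0.647, edgeR). The other leading SVA_B copies, SVA_B_dup29_3672636 and SVA_B_dup8_4939993, had log2 fold changes of −0.19 and 0.12, close to 0.

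SVA_A held copies that leaned in opposite directions. Its leading locus, SVA_A_dup23_2826633, had 52, 68 and 53 reads with the U7 ASO and 94, 122 and 177 reads with the control ASO. All 3 U7 ASO libraries lay below all 3 control ASO libraries, as at 8.36% of all tested loci, and the log2 fold change of −1.29 (SE 0.37) just missed the threshold (edgeR adjusted p = 0.0656). DESeq2 called it lowered (adjusted p = 0.0334), as did upper-quartile scaling (0.0353). SVA_A_dup40_2303133 had 2, 0 and 2 reads with the U7 ASO and 18, 14 and 16 with the control ASO (log2 fold change −3.60, edgeR adjusted p = 0.272).

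On the other side SVA_A_dup50_3926386 had 18, 12 and 26 reads with the U7 ASO and none with the control ASO. Set against 3 control reads it was 17.1-fold higher but short of the threshold (edgeR adjusted p = 0.0534). DESeq2 called it raised (adjusted p = 0.00212). SVA_A_dup14_4663927 had 82, 60 and 156 reads with the U7 ASO and 44, 30 and 8 with the control ASO (log2 fold change 1.69, edgeR adjusted p = 0.141). Limma-voom called this copy raised (adjusted p = 0.0499). SVA_A_dup50_4779597, also among the 3 leading SVA_A loci, had a log2 fold change of −0.34.

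In SVA_C the 3 leading loci did not pass. SVA_C_dup23_265669 had 98, 79 and 18 reads with the U7 ASO and 51, 71 and 68 with the control ASO, and U7 ASO replicate 3 alone was low. SVA_C_dup11_2320955 and SVA_C_dup8_3302349 had log2 fold changes of 0.79 (SE 0.60) and 1.03 (SE 0.94).

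The leading loci of SVA_E and SVA_F did not pass or had too few reads. SVA_E_dup2_3461775 had 26, 56 and 14 reads with the U7 ASO and 36, 20 and 16 with the control ASO, and SVA_E_4437865 had 8, 9 and 24 against 8, 16 and 11. SVA_E_dup31_2083134 had too few reads for the test, with 4, 6 and 36 under the U7 ASO and 4, 0 and 4 under the control ASO. SVA_F_dup39_4778386 had 60, 14 and 50 reads with the U7 ASO and 8, 10 and 14 with the control ASO, where U7 ASO replicate 2 only equalled the highest control library (log2 fold change 1.82, edgeR adjusted p = 0.231). SVA_F_dup6_493631 and SVA_F_dup25_105998 had log2 fold changes of −0.13 and −1.25, and SVA_D_dup23_2535294 had 1.44 (SE 1.27).

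Over the 69 tested loci the median log2 fold change was 0.22, against 0.06 over all tested loci. Of the 65 that did not pass, 36 had a positive and 29 a negative log2 fold change. All 3 U7 ASO libraries lay above all 3 control ASO libraries at 10 loci (14.5%, against 12.2% of all tested loci) and below them at 3 (4.35%, against 8.36%). The median standard error of a tested SVA locus was 0.77 on the log2 scale, so changes of the size seen for the subfamily sums were not detectable at most single loci.

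**Figure D2:**
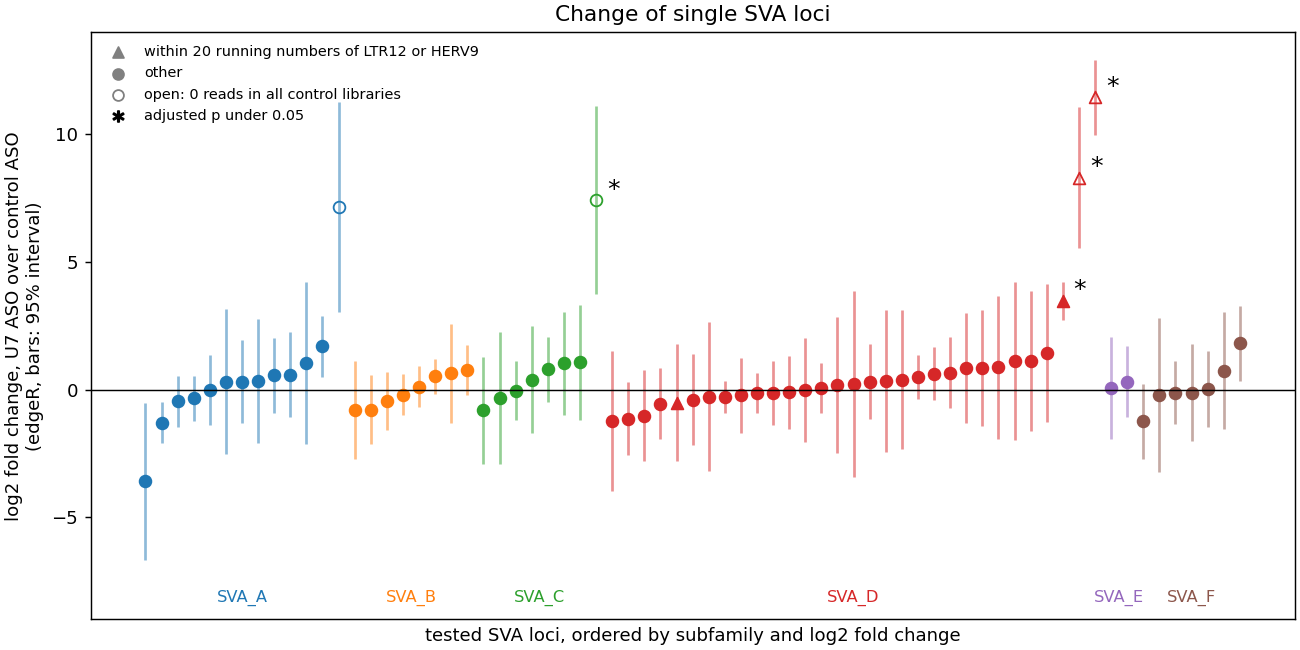
Log2 fold change of the 69 tested SVA loci (U7 ASO over control ASO, edgeR, with 95% intervals), ordered by subfamily and value. Triangles mark loci within 20 running numbers of an LTR12 or HERV9 locus, open symbols loci with 0 control reads and asterisks the 4 raised loci; the fitted values of open symbols are no bounds.

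Of the 4 raised copies, 3 carried numbers beside an LTR12 or HERV9 locus. The running numbers rise through the table in the order of its rows, and how they were assigned is not given in the sources used here. They carried neighbourhood: 67.5% of the 277 listed HERV9 internal loci had a listed LTR12 locus within 3 running numbers, against 0.558% of the loci outside LTR12 and HERV9.

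By its number SVA_D_dup19_4861603 stood between loci named for parts of HERV9. The listed loci around it were, in order of number, LTR12C_dup40_4861600, HERV9NC-int_4861601, the SVA_D copy, HERV9NC-int_dup1_4861605 and LTR12C_dup41_4861606. HERV9NC-int_4861601 had 28, 134 and 116 reads and HERV9NC-int_dup1_4861605 had 163, 136 and 179 reads with the U7 ASO, and neither had a read with the control ASO. LTR12C_dup41_4861606 had 79, 51 and 68 reads with the U7 ASO and 0, 2 and 0 with the control ASO. These 3 neighbours were called raised (edgeR adjusted p = 0.000298, 1.07e-05 and 0.000463), whereas LTR12C_dup40_4861600, with 79, 40 and 18 against 0, 0 and 8 reads, was not (adjusted p = 0.0557). The SVA_D copy thus had no control reads, and the HERV9NC-int and LTR12C loci numbered on both sides of it had none or few. A locus without control reads is listed only through its U7 ASO reads, so this likeness is partly built in. It was not tested.

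The other large riser, SVA_D_dup53_3079973, was 5 running numbers from LTR12C_dup51_3079978. That LTR12C copy had 168, 124 and 97 reads with the U7 ASO and 10, 0 and 18 with the control ASO (log2 fold change 3.70, edgeR adjusted p = 0.00506). Between them AluY_dup2703_3079975 had 63, 58 and 68 reads with the U7 ASO and 6, 10 and 0 with the control ASO (log2 fold change 3.39, edgeR adjusted p = 0.0185). On the other side LTR19B_dup12_3079967 was raised too, with a log2 fold change of 4.03 (edgeR adjusted p = 0.0321). The SVA_D copy and its 3 raised neighbours had log2 fold changes between 3.39 and 4.03.

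SVA_D_dup10_2979526 was 2 numbers from LTR12C_dup16_2979524, which had 6, 2 and 22 reads with the U7 ASO, none with the control ASO, and too few for a test. SVA_C_dup16_2002161 had no LTR12 or HERV9 locus within 20 numbers. Only 1 locus was listed within that distance, LTR88a_dup36_2002148, with 1 read in all.

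**Figure D3:**
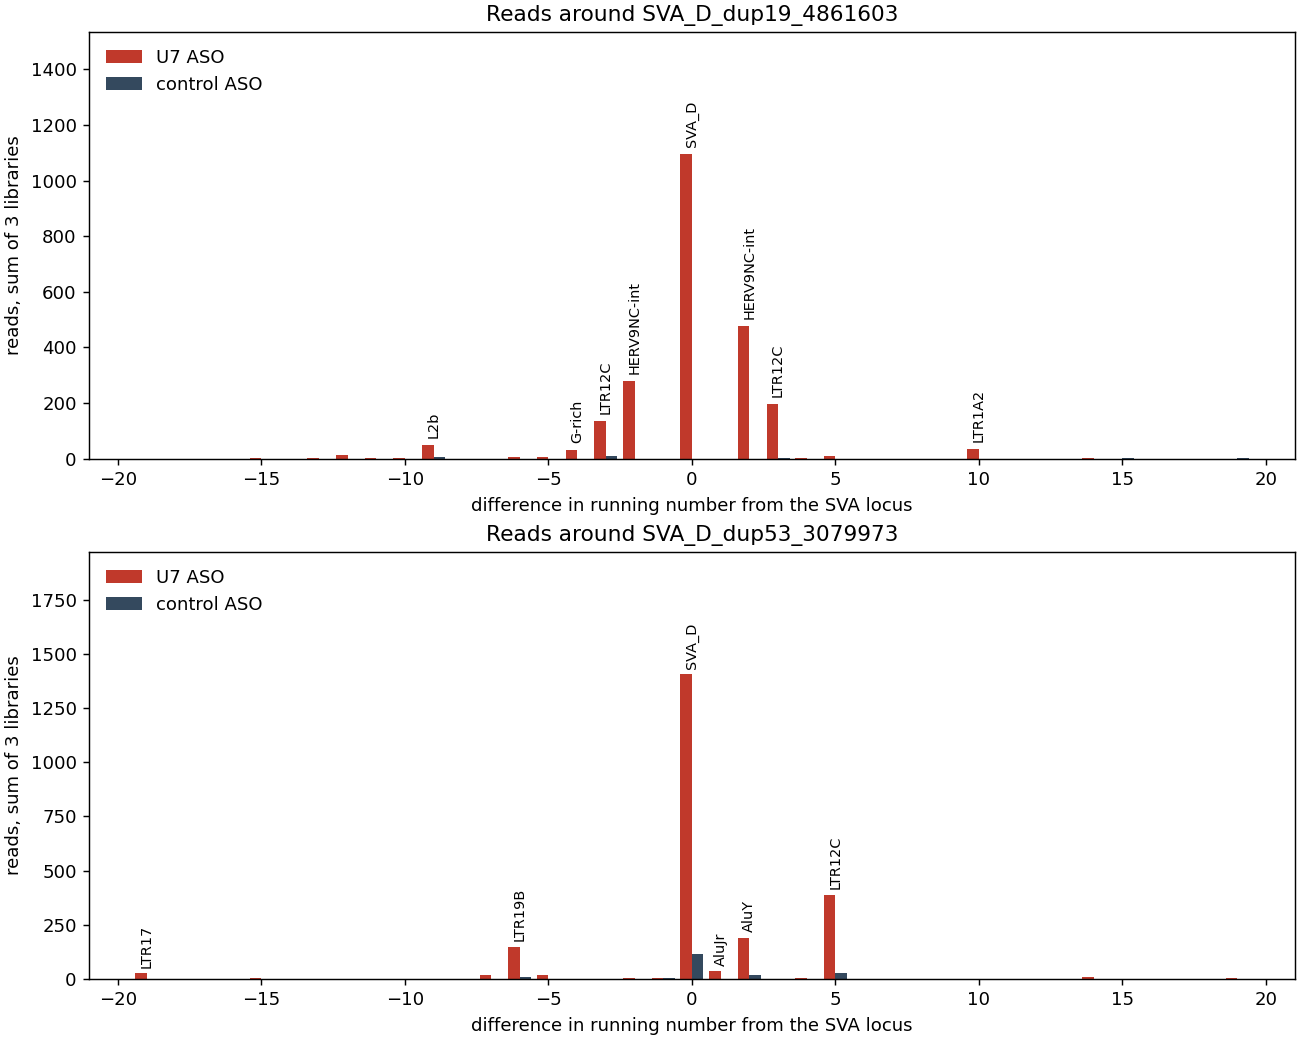
Reads, summed over the 3 libraries of each group, at the listed loci within 20 running numbers of SVA_D_dup19_4861603 (top) and SVA_D_dup53_3079973 (bottom); the horizontal axis is a difference in numbering and not a distance in bases. Loci with at least 20 reads are named, and the control bars stand at 28 reads or fewer except at SVA_D_dup53_3079973 itself (1408 reads with the U7 ASO and 116 with the control ASO).

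Such neighbourhood was uncommon among tested loci of SVA and of other repeats, and common among the raised loci of both. An LTR12 or HERV9 locus was listed within 20 numbers of 34 of the 984 SVA loci and of 4 of the 69 tested ones (5.80%), against 2.97% of all tested loci outside LTR12 and HERV9. Of the 4 tested SVA loci so placed, 3 were raised, where 38.3% of the 410 tested loci of other repeats so placed were raised, and SVA_D_2141305, with 6, 2 and 22 reads under the U7 ASO and 14, 10 and 14 under the control ASO, was not. Of the 65 tested SVA loci without such a neighbour, 1 was raised (1.54%), against 1.16% of the other repeats without one. Among the 313 raised loci outside LTR12, HERV9 and SVA, 50.2% had an LTR12 or HERV9 neighbour.

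The 19 of these 34 loci that are SVA_D carried nearly all of the difference in SVA_D. Their reads averaged 391 ± 110 CPM with the U7 ASO and 33.8 ± 7.96 CPM with the control ASO (SD, n = 3 each). Reads at the remaining SVA_D loci averaged 728 ± 67.7 CPM with the U7 ASO and 721 ± 112 CPM with the control ASO. SVA_D_dup53_3079973 made up 48.5% and SVA_D_dup19_4861603 41.3% of the SVA_D difference between the group means.

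With the loci near LTR12 or HERV9 left out of the sums, the log2 fold change of SVA_D was 0.02 (adjusted p = 0.982), against 0.57 with them. This split was made after the called loci were known and takes out all 3 called SVA_D copies, which hold 94.5% of the difference, so a value near 0 followed from the split and is no separate result. Some LTR12 neighbours are themselves listed only through U7 ASO reads, as beside SVA_D_dup10_2979526. Without SVA_D_dup19_4861603 alone the log2 fold change was 0.36, and without SVA_D_dup53_3079973, the leading locus, it was 0.33 (adjusted p = 0.427). LTR12 and HERV9 reads themselves took 3.18%, 2.01% and 2.30% of the reads in the U7 ASO libraries and 0.213%, 0.214% and 0.266% in the control ASO libraries. Whether reads at these SVA copies belong to transcripts that start in an LTR12 was not tested.

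Over all 6 subfamilies, loci near LTR12 or HERV9 took 22.9%, 18.6% and 17.3% of SVA reads with the U7 ASO and 1.98%, 2.14% and 3.38% with the control ASO. This share rests largely on the 3 called SVA_D copies. At the remaining 950 loci the sums were 1817, 1394 and 1807 CPM with the U7 ASO and 1643, 1715 and 1436 CPM with the control ASO. The groups overlapped here, as they already did over all 984 loci. This split too was made after the calls were known, and it takes out 3 of the 4 called loci. Nearby copies that were not called raised numbered 31, and only SVA_D_2141305 of them had enough reads for a test. Together the 31 held 109, 97 and 156 reads with the U7 ASO and 32, 30 and 58 with the control ASO. At 18 of them the listing rests on U7 ASO reads alone, as at 459 of all 984 SVA loci. These sums were not tested.

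**Figure D4:**
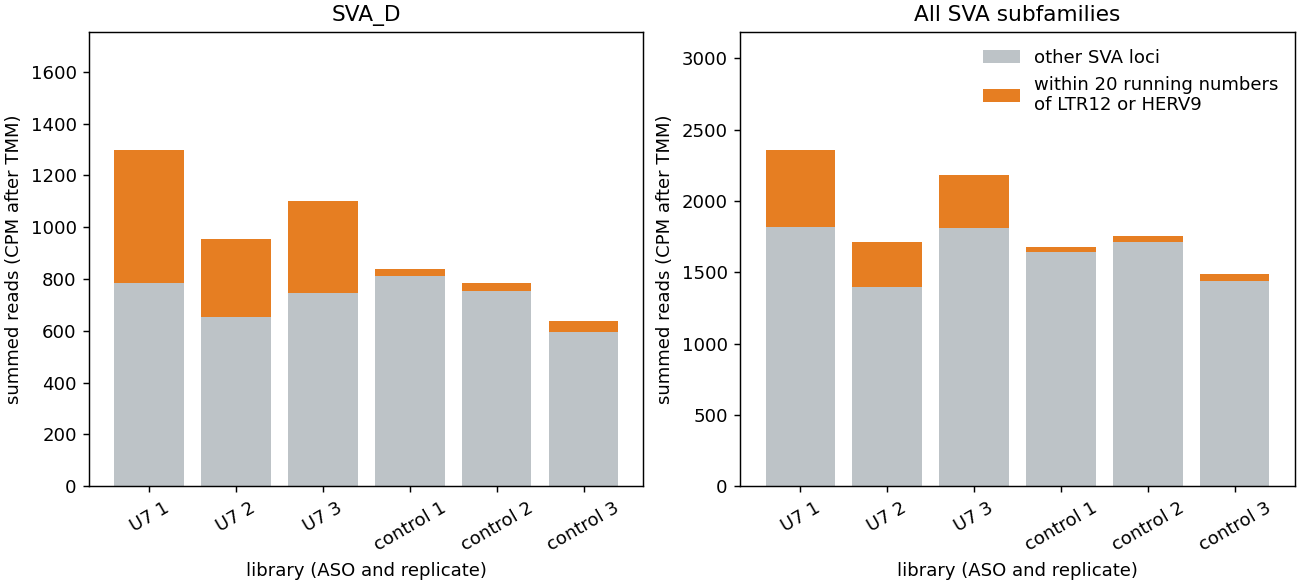
Summed reads of SVA_D (left) and of all SVA subfamilies (right) in each library, in CPM after TMM scaling, split into loci within 20 running numbers of LTR12 or HERV9 (orange) and the rest (grey). The orange part of SVA_D is 302 to 514 CPM in the U7 ASO libraries and 26.8 to 42.4 CPM in the control ASO libraries, while the grey parts overlap.

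Simple repeats of the hexamer unit at the start of SVA elements were listed, but few of them lay beside an SVA locus. All 12 rotations of CCCTCT on either strand were searched among the repeat names, and 11 of them were listed, with 148 loci. Of these loci 10 (6.76%) were within 2 running numbers of an SVA locus, against 0.140% of all loci outside SVA. Only 11 SVA loci (1.12%) had such a repeat within that distance. These 10 held 16, 50 and 41 reads with the U7 ASO and 13, 19 and 24 with the control ASO, and none had enough for a test. Of the hexamer loci elsewhere and beside SVA together, 5 were tested and 0 were called. The name (CCCTCT)n had 56, 82 and 77 reads with the U7 ASO and 19, 47 and 60 with the control ASO and did not pass (edgeR adjusted p = 0.734). The 5 tested loci were not beside SVA, and the name sums its loci wherever they are listed. Neither therefore follows the hexamer of SVA elements.

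Repeats related to SVA by descent or by mode of copying were compared from a list of 10 names. LTR5_Hs, the HERVK long terminal repeat whose sequence SINE-R shares, passed and the others did not. It averaged 326 ± 60.8 CPM with the U7 ASO and 165 ± 21.4 CPM with the control ASO (log2 fold change 0.98, SE 0.22, edgeR adjusted p = 0.0124). Its call was lost when either of U7 ASO replicates 2 and 3, or control ASO replicate 2, was left out (edgeR adjusted p = 0.0678 to 0.167). HERVK-int, the internal part of that retrovirus, was at a log2 fold change of −0.39 (95% interval −1.05 to 0.28). L1HS, the L1 subfamily that is active in humans, had a log2 fold change of 0.24 (95% interval −0.21 to 0.69), and L1PA2 and L1PA3 had −0.13 and 0.10. AluY, AluYa5 and AluYb8 had 0.44, 0.42 and 0.36, all short of the threshold (edgeR adjusted p = 0.189, 0.437 and 0.734). LTR5A and LTR5B, older HERVK long terminal repeats, had 1.10 and 0.30 (edgeR adjusted p = 0.0895 and 0.650). LTR5A passed in DESeq2 (adjusted p = 0.0341) and without control ASO replicate 3 (edgeR adjusted p = 0.0494), and AluY passed without U7 ASO replicate 1 (edgeR adjusted p = 0.0302). The 95% interval of SVA_D overlapped that of each of the 10 names, and the differences between them and SVA_D were not tested.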

How the data were processed

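RNA-seq reads of 6 HEK293T libraries were counted by the authors, who deposited 1 table of raw read counts per library. STAR 2.5.3a, featureCounts 1.5.0-p1 of Subread and FastQC 0.11.5 are named, with GRCh38, per the submitters' processing notes. Not given in the sources used here are the repeat annotation, the strand setting and the handling of multi-mapping reads, and the tables hold no coordinates, so no SVA sequence is printed.

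Groups and replicate numbers came from the sample titles. A repeat name is the identifier without its copy and running numbers. Counts of all 14380 loci and of all 2236 repeat names that passed filterByExpr (minimum count 10, minimum total 15) were tested with edgeR 4.0.16 (TMM, glmQLFit, glmQLFTest, two-sided) under R 4.3.3, U7 ASO over control ASO, with p-values adjusted over all features. CPM values are edgeR's, over tested features. The edgeR test gives no SE, so each SE is the absolute log2 fold change divided by the square root of the F statistic. Intervals of log2 fold changes were built from these SEs with the t distribution and are approximate. Alternatives used DESeq2 1.42.0, limma-voom 3.58.1, other scalings, no filter, left-out libraries and a replicate block. The code was tested on simulated counts.

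The loci named were those called, the 3 with the most reads in each subfamily and the 10 with the largest absolute log2 fold change. The neighbour window was 20 running numbers. Members and lists were chosen with earlier results of these data known. Folds against 0 control reads were computed against 3 reads over the group and are not strict bounds.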

Additional observations from a re-analysis of the deposited data

How the results depend on the processing

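Of the 6 subfamilies, 0 passed in 18 of the 19 alternatives, and 1, SVA_D, passed with the replicate number as a block (log2 fold change 0.57, adjusted p = 0.0225). The deviations of same-numbered libraries from their group means correlated at 0.12, −0.03 and 0.12 over repeat names. Not every library correlated best with its own number. With 3 libraries per group such values cannot decide whether the numbers pair the libraries. Over all repeat names the block called 59 raised and 74 lowered, against 34 and 23 without it. The locus count of 4 became 3 under the block. It ran from 2 to 3 when single libraries were left out, with 2 without U7 ASO replicate 1, and was 3 without a count filter, 5 with upper-quartile scaling and 6 with DESeq2. SVA_D_dup19_4861603 and SVA_D_dup53_3079973 passed in all 13 alternatives run for them.

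Over all features the calls ran from 33 to 133 repeat names (57 as reported) and from 313 to 942 loci (713 as reported), and upper-quartile scaling moved the median of all loci by −0.15. Without the SVA loci within 5, 20 or 50 running numbers of LTR12 or HERV9, chosen after seeing the data, SVA_D had log2 fold changes of 0.04, 0.02 and 0.01. The cause of the following sign changes was not tested, and none of these values passed. SVA_B was at −0.0191 with limma-voom, −0.0159 with the block, −0.0240, −0.0203 and −0.0180 in those 3 fits, and −0.0781 without each leading locus. With single libraries left out SVA_A ran from −0.0490 to 0.21 and SVA_B from −0.0905 to 0.20. Without each leading locus the difference in share was 0.48 percentage points for SVA_A, 0.12 for SVA_E and 0.20 for SVA_F, and with single libraries left out it ran from −0.39 to 0.93 for SVA_C, −0.51 to 0.48 for SVA_E and −1.49 to 0.13 for SVA_F. SVA_B_dup8_4939993 was at −0.0406 with upper-quartile scaling. SVA_E_4437865 was at −0.10 with upper-quartile scaling, −0.0193 with library totals and −0.0163 with the block. With single libraries left out these log2 fold changes ran from −0.41 to 0.0667 for SVA_B_dup29_3672636, −0.0471 to 0.36 for SVA_B_dup8_4939993, −0.49 to 0.46 for SVA_C_dup23_265669, −0.35 to 0.74 for SVA_E_dup2_3461775, −0.49 to 0.40 for SVA_E_4437865 and −1.06 to 0.24 for SVA_F_dup6_493631.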

Other observations

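Among the SVA loci, 24 neighbouring pairs in the table carried consecutive running numbers and 28 carried numbers at most 2 apart. Whether such pairs are parts of 1 element was not tested, so 984 counts listed loci and not elements.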
